A study of Mus musculus with 7 samples.

Results

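The Hox genes are transcription factor genes that lie in 4 clusters on mouse chromosomes 6 (Hoxa), 11 (Hoxb), 15 (Hoxc) and 2 (Hoxd), and they were followed here in sorted embryonic sensory neurons. They were taken as every row of the count table whose symbol is Hox, a cluster letter from a to d and a number, and this gave 39 genes of 29777. RNA was sequenced from cells that expressed GFP and were sorted from dorsal root ganglia of the neck, named cervical in the protocol, which are the clusters of sensory neurons beside the spinal cord, of ICR mouse embryos at E11.5. The Runx3-P2 allele carries GFP, which marks TrkC neurons, the precursors of the neurons that sense muscle stretch. The 3 heterozygotes (Runx3-P2+/-) were compared with the 4 homozygotes (Runx3-P2-/-), and the contrast bears on what the loss of Runx3, a transcription factor of the Runt family, does to the RNA of these cells. Both genotypes carry the GFP allele, so the heterozygotes are not wild-type animals, although the file headers call them WT. The design text speaks of pools of 4 without saying of what, and nothing says whether each library came from its own litter, so a p-value here measures the spread between libraries only, and that spread may be technical.

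Hox genes are known to be turned on in the order in which they lie along a cluster, with low-numbered genes reaching far forward and high-numbered genes kept to the rear. The genes with the same number in different clusters are called a paralogue group, and the set that is on in a cell marks its level along the head-to-tail axis. In the neural tube, groups 1 to 3 are known for hindbrain segments, groups 4 to 8 for cervical and brachial levels, group 9 for thoracic levels and group 10 for lumbar levels. Hox proteins are known to bind DNA together with the TALE cofactors Pbx and Meis.

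Totals ranged from 11184237 to 13986835 counts per library, of which Hox genes held 0.0291 to 0.0712 percent. Runx3 itself had 862, 1088 and 1087 counts in heterozygotes and 90, 148, 81 and 143 in homozygotes. All 16 genes of the sensory neuron marker list had counts in every library. RNA of other cells was present too, and summed leukocyte markers were 291 to 344 CPM (the count scaled to library size after TMM scaling) in heterozygotes and 675 to 4090 CPM in homozygotes. Most of the heterozygote sums came from 1 gene, Coro1a, at 208, 226 and 283 CPM. Coro1a stood at 247 to 621 CPM in homozygotes, so the genotypes overlapped in it. Heterozygote library 3 had 3 of the 15 leukocyte markers at 0, and the other libraries had 0 of them at 0. Homozygote library 3 held the highest leukocyte sum and the lowest sensory neuron sum, 11834 CPM against 19423 to 23656 CPM in the others. In such sorted bulk samples, fewer cells of a type and less RNA per cell cannot be told apart. A pair of heterozygote libraries stood apart in the Hox genes themselves, library 1 by group 10 genes and library 3 by low levels of groups 6 to 9, and results that rest on them are given with and without them.

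Of the 39 Hox genes, 30 had counts and 9 had 0 counts in every library. The 9 were Hoxa11, Hoxa13, Hoxb13, Hoxc11, Hoxc12, Hoxc13, Hoxd11, Hoxd12 and Hoxd13, all of groups 11 to 13, which are known for the tail end of the body, the limb and the urogenital tract. A count of 0 allows up to 3 counts, 0.219 to 0.261 CPM depending on the library. Every gene of groups 1 to 10 had counts in at least 1 library. The filter on low counts kept 26 Hox genes for testing, and the other 4 with counts, Hoxc10, Hoxd1, Hoxd9 and Hoxd10, are given by their counts.

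Per kilobase of transcript, the 12 highest Hox genes on average over the 7 libraries included Hoxa7, Hoxb3, Hoxb6, Hoxc8, Hoxb7, Hoxb9, Hoxa5, Hoxb5, Hoxc5, Hoxa4 and Hoxa2. On this length-scaled level, Hoxa7 stood at 41.2 CPM per kb, Hoxb3 at 27.2, Hoxb6 at 25.5, Hoxc8 at 25.1 and Hoxb7 at 23.3 CPM per kb. The levels fell off to 5.25 CPM per kb for Hoxa2. These neighbours in the order are closer than the spread between libraries, since Hoxc8 alone ran from 2.0 to 102 CPM before length scaling. Of the 12, 10 belonged to groups 3 to 9, and the same 12 led when the length of all exons was used in place of 1 transcript. The levels and order within the 12 depended on that length: with all exons Hoxa7 stood at 29.6 CPM per kb, and Hoxb3 went from rank 2 to rank 9, at 13.2 CPM per kb, and Hoxb6 from rank 3 to rank 6, at 17.2 CPM per kb. Hoxb held 45.4 percent of the summed Hox level per kilobase, Hoxa 32.9 percent, Hoxc 17.9 percent and Hoxd 3.82 percent. Hox transcripts overlap and read through into neighbours within a cluster, and whether counting used strand is not stated, so reads can be shared between adjacent members and with antisense transcripts.

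**Figure D1:**
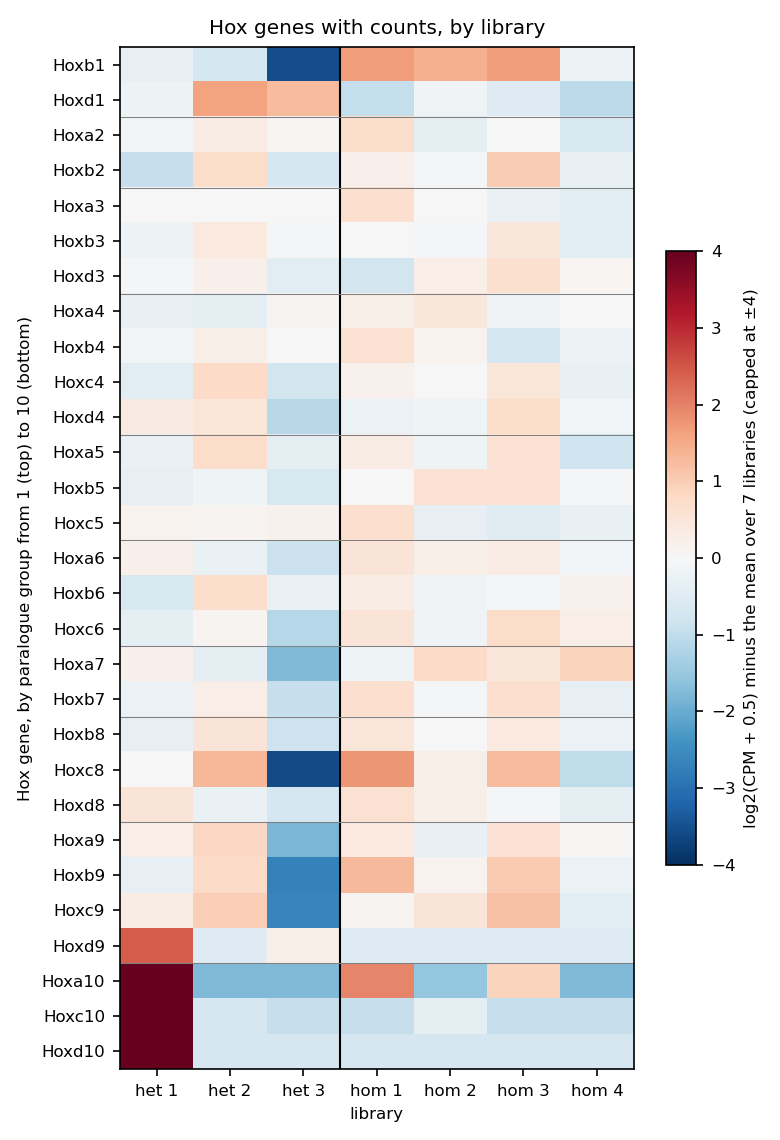
Level of 29 of the 30 Hox genes with counts in the 7 libraries (columns, 3 heterozygotes then 4 homozygotes), as log2(CPM + 0.5) minus the gene's mean over the libraries, capped at 4 either way, with genes ordered by paralogue group. Red is above and blue below the gene's mean. Heterozygote library 1 is red for Hoxa10, Hoxc10 and Hoxd10, with 344, 306 and 159 counts, and heterozygote library 3 is blue for Hoxc8, Hoxb9 and Hoxc9.

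No Hox gene passed the test between genotypes: 0 of 26 had an adjusted p below 0.05 in edgeR's quasi-likelihood test, against 7 of 14040 genes (0.0499 percent; 0.0142 percent higher and 0.0356 percent lower in homozygotes). DESeq2 also called 0 Hox genes, against 668 of all genes (4.76 percent; 3.45 percent higher and 1.31 percent lower in homozygotes), and none of the 26 Hox genes with an adjusted p in the authors' deposited table was below 0.05. At an unadjusted edgeR p below 0.05 there were 3, Hoxb1, Hoxb5 and Hoxa7, each with the higher mean in homozygotes. That is 3 of 26 in a table where 12.6 percent of all genes reached the same mark and 7.75 percent did so with the higher level in homozygotes. None reached it with the lower level, which 4.88 percent of all genes did. The genotypes did not overlap in 2 Hox genes, Hoxb1 and Hoxb5, both higher in homozygotes, a direction that 6.6 percent of all genes tested showed. No tested Hox gene was lower in every homozygote, against 5.78 percent of all genes.

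As a group, the fitted log2 fold change of homozygote over heterozygote had a median of 0.26 over the 26 Hox genes and of -0.0177 over all 14040 genes. It was above 0 in 20 of the 26, 76.9 percent, against 48.3 percent of all genes. Neighbouring Hox genes share a cluster and libraries, so they are not independent of one another. Without heterozygote library 3 the Hox median was 0.0503, and without both libraries numbered 3 it was -0.0450. With the leukocyte marker mean as a covariate it was -0.0817. In a narrower window of label dates, without homozygote libraries 1 and 3, the earliest and the latest, it was -0.0441. That window still held homozygote library 4, dated later than every heterozygote. The leukocyte covariate largely follows genotype, since summed leukocyte markers did not overlap between genotypes, and 0 of all genes were called with it. Here and below, fits with that covariate therefore cannot separate leukocyte RNA from genotype. The Hox genes varied more between libraries of a genotype than most genes: their median biological coefficient of variation in edgeR was 0.441, against 0.353 over all genes. These sets were not matched for level, and the part of level in this difference was not tested.

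**Figure D2:**
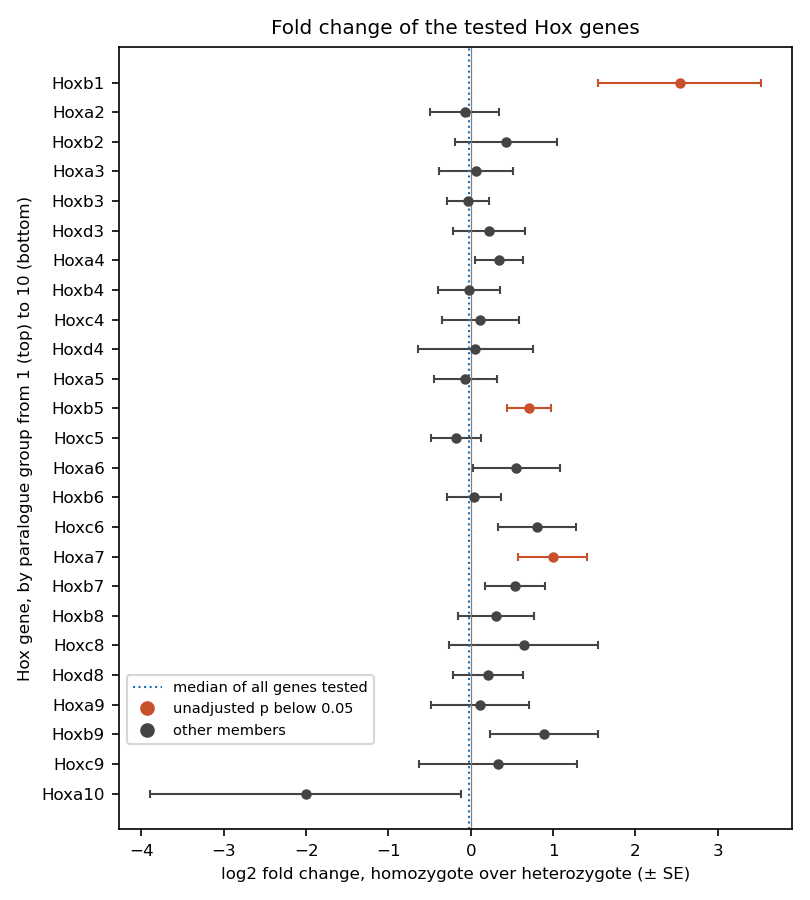
Log2 fold change of homozygote over heterozygote with its SE for 25 of the 26 tested Hox genes, from paralogue group 1 at the top to group 10 at the bottom, with the median of all genes as a dotted line. Hoxb1, Hoxb5 and Hoxa7, at 2.54, 0.71 and 1.0, are the 3 members with an unadjusted p below 0.05, and none of the 26 had an adjusted p below 0.05.

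Among groups 1 to 3, 7 of the 8 genes were tested, with a median log2 fold change of 0.22. Hoxb1, which is known for the fourth hindbrain segment and for keeping itself on through Pbx-Hox sites upstream of its start, had the largest fitted fold change of any tested member in the direction of the homozygotes. It stood at 4.13, 3.03 and 0 CPM in heterozygotes and at 18.1, 15.01, 18.1 and 4.49 CPM in homozygotes. Every homozygote was above every heterozygote, but homozygote library 4 exceeded heterozygote library 1 only by 4.49 against 4.13 CPM, and heterozygote library 3 had no count at all. The group values were 2.39 ± 2.14 CPM (SD, n = 3) and 13.9 ± 6.45 CPM (SD, n = 4). The log2 fold change was 2.54 ± 1.0 (SE; edgeR unadjusted p = 0.0290 and adjusted p = 0.322, DESeq2 adjusted p = 0.0645). It was 1.97 ± 0.64 (SE; edgeR adjusted p = 0.418) without heterozygote library 3, and 0.94 ± 1.28 (SE; edgeR adjusted p = 0.998) with the leukocyte marker mean as a covariate. limma-voom gave 3.85 ± 1.54 (SE). In the authors' deposited table the adjusted p was 0.115.

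The summed level of spinal cord marker genes ranked the libraries much as Hoxb1 did. It was 97.4, 97.6 and 54.9 CPM in heterozygotes and 224, 175, 294 and 113 CPM in homozygotes, but 1 gene, Foxp1, made up 42.6 to 93.9 CPM of it. Without Foxp1 the sum was 43.9, 54.9 and 11.8 CPM in heterozygotes and 130, 96.7, 206 and 45.4 CPM in homozygotes, and the genotypes overlapped, with homozygote library 4 below heterozygote library 2. Of the 25 genes of that list, 14 were tested, 0 were called by edgeR and 5 had an unadjusted p below 0.05, all with the higher level in homozygotes. DESeq2 called 2 of them higher in homozygotes, Foxp1 (adjusted p = 0.00479) and Gata2 (adjusted p = 0.00456). Olig2, Nkx6-1 and Nkx6-2, of motor neuron and ventral progenitors, each had 0 counts in every heterozygote and in 2 of the 4 homozygotes, and at most 9 counts in the others. Dbx2 went the other way, with 12, 0 and 0 counts in heterozygotes and 5, 6, 1 and 0 in homozygotes. So did Pax2, with 3, 4 and 0 counts in heterozygotes and 1, 0, 0 and 2 in homozygotes. En1 also had a slightly lower mean in homozygotes, 1.11 against 1.21 CPM. In heterozygote library 3, the library with no Hoxb1 count, 20 of the 25 were at 0, among them Pax6, Pax8 and Lhx1, against 2 to 9 of the 25 in the other libraries. The part of such cells in the Hoxb1 values was not tested.

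The start-site regions of 3 members are shown, from the RefSeq promoter table on build GRCm38.p6: Hoxb1 and Hoxa7 as members with a low unadjusted p, and Hoxd1 as the member with the opposite pattern. Each is the 250 bases before the annotated start, 5′ to 3′ on the gene's own strand, with the letters matched in capitals. They are chr11:96365508-96365757 (plus strand, Hoxb1), chr6:52218574-52218823 (minus strand, Hoxa7) and chr2:74762730-74762979 (plus strand, Hoxd1).
Hoxb1: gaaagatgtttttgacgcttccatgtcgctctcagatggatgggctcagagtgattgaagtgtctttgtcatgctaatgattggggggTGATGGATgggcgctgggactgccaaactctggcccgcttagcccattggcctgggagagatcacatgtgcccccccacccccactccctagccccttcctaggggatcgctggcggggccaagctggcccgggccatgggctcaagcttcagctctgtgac
Hoxa7: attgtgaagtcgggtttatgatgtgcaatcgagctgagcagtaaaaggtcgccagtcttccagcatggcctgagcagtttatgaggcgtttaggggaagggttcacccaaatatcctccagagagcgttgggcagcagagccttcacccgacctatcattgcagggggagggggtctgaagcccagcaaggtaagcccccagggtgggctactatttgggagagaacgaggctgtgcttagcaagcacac
Hoxd1: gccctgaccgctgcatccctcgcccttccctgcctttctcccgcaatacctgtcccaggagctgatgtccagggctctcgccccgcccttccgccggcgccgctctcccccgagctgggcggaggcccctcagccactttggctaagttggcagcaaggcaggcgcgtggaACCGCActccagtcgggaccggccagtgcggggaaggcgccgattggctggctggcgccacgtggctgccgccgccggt
The letters searched, on both strands, were TGATNNAT for Pbx-Hox pairs, TGACAG for Meis, and TGTGGT and TGCGGT for Runx factors. Hoxb1 held TGATNNAT at 162 bases before its start, Hoxd1 held TGCGGT on the other strand at 79 bases before it, and Hoxa7 held none of the 4. The table held windows for 22 of the 39 Hox genes, 24 windows in all. TGATNNAT was in 16.7 percent of these 24 windows and in 7.68 percent of all 32851 windows of the same length. TGACAG was in 8.33 percent against 15.9 percent, TGTGGT in 4.17 percent against 14 percent, and TGCGGT in 8.33 percent against 5.1 percent. The Hox counts are of 1 to 4 windows, and a match is not a bound site.

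Hoxd1, also of group 1, is known in mouse for marking pain-sensing neurons of the dorsal root ganglion. Its counts were 9, 43 and 33 in heterozygotes and 3, 10, 6 and 2 in homozygotes, too few for the filter. Heterozygote libraries 2 and 3 were above every homozygote, while heterozygote library 1 was below homozygote library 2. Scaled to library size, the summed counts were 5.73 times higher in heterozygotes (95 percent exact interval 3.52 to 9.74, counting error only). In a fit with no filter, its log2 fold change was -2.53 ± 1.03 (SE; edgeR unadjusted p = 0.0292 and adjusted p = 0.359), and the adjusted p in the authors' deposited table was 0.121.

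Hoxa2, which sets the identity of the second branchial arch, stood at 8.34, 10.98 and 9.48 CPM in heterozygotes and 15.02, 6.92, 8.81 and 5.68 CPM in homozygotes. Hoxb3, the highest member of these groups per kilobase, stood at 43.5, 65.7 and 47.1 CPM in heterozygotes and at 50.0, 47.8, 68.8 and 36.7 CPM in homozygotes. The genotypes of both overlapped, and their log2 fold changes were -0.0747 ± 0.42 (SE) for Hoxa2 and -0.0360 ± 0.26 (SE) for Hoxb3. Hoxa3 was nearly level over the heterozygotes, at 6.003, 6.05 and 5.83 CPM. The remaining tested genes, Hoxb2 and Hoxd3, had log2 fold changes of 0.43 ± 0.62 and 0.22 ± 0.44 (SE).

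Among groups 4 and 5, all 7 genes were tested, and the median log2 fold change was 0.0532. Hoxb5, a gene of cervical levels, stood at 23.9, 26.4 and 19.0 CPM in heterozygotes and at 30.7, 45.3, 45.9 and 29.1 CPM in homozygotes. Every homozygote was above every heterozygote, with homozygote libraries 2 and 3 the highest. The group values were 23.1 ± 3.78 CPM (SD, n = 3) and 37.7 ± 9.09 CPM (SD, n = 4). The log2 fold change was 0.71 ± 0.27 (SE; edgeR unadjusted p = 0.0248 and adjusted p = 0.300, DESeq2 adjusted p = 0.159), and in the authors' deposited table the adjusted p was 0.110. With the leukocyte marker mean as a covariate the log2 fold change was 0.23 ± 0.42 (SE), and it was 0.48 ± 0.33 (SE) without both libraries numbered 3.

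Its paralogues did not share that pattern of values. Hoxa5, which with Hoxc5 is needed for motor neurons of the diaphragm, stood at 25.7, 51.2 and 23.8 CPM in heterozygotes and 37.7, 26.9, 46.1 and 17.4 CPM in homozygotes. Hoxc5 stood at 43.3, 42.1 and 44.1 CPM in heterozygotes and at 62.6, 30.6, 27.6 and 31.5 CPM in homozygotes. Homozygote library 1 was above all others for Hoxc5 and the other 3 homozygotes were below every heterozygote, so the genotypes overlapped, with a log2 fold change of -0.18 ± 0.30 (SE). Hoxa4 stood at 14.7, 13.8 and 19.6 CPM in heterozygotes and 21.3, 25.2, 16.4 and 18.3 CPM in homozygotes, a log2 fold change of 0.34 ± 0.29 (SE). The other genes of group 4, Hoxb4, Hoxc4 and Hoxd4, had log2 fold changes of -0.0235, 0.12 and 0.0532, each within its SE of 0.37 to 0.70. These differences between paralogues were not tested.

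Among groups 6 and 7, all 5 genes were tested, and the fitted fold change was above 0 in each, with a median of 0.55. Hoxa7, the highest Hox gene of these libraries per kilobase, stood at 83.1, 54.2 and 20.9 CPM in heterozygotes and 64.1, 123, 98.6 and 135 CPM in homozygotes. The genotypes overlapped, since homozygote library 1 was below heterozygote library 1, and heterozygote library 3 was the lowest of the 7. The group values were 52.7 ± 31.1 CPM (SD, n = 3) and 105 ± 31.5 CPM (SD, n = 4). The log2 fold change was 1.0 ± 0.42 (SE; edgeR unadjusted p = 0.0388 and adjusted p = 0.359, DESeq2 adjusted p = 0.132). Without heterozygote library 3 it was 0.63 ± 0.33 (SE; edgeR adjusted p = 0.655), and with the leukocyte marker mean as a covariate it was -0.0561 ± 0.54 (SE).

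Hoxb6 stood at 20.5, 52.6 and 26.8 CPM in heterozygotes and 40.0, 29.1, 30.4 and 36.9 CPM in homozygotes. Its highest library was heterozygote library 2, and the log2 fold change was 0.0349 ± 0.33 (SE). Hoxb7 stood at 23.8, 33.6 and 14.5 CPM in heterozygotes and 45.1, 26.8, 44.7 and 22.2 CPM in homozygotes, with a log2 fold change of 0.53 ± 0.36 (SE). The genotypes overlapped in both. Hoxa6 and Hoxc6, the latter a gene of limb-level motor neurons, had log2 fold changes of 0.55 ± 0.53 and 0.81 ± 0.47 (SE).

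**Figure D3:**
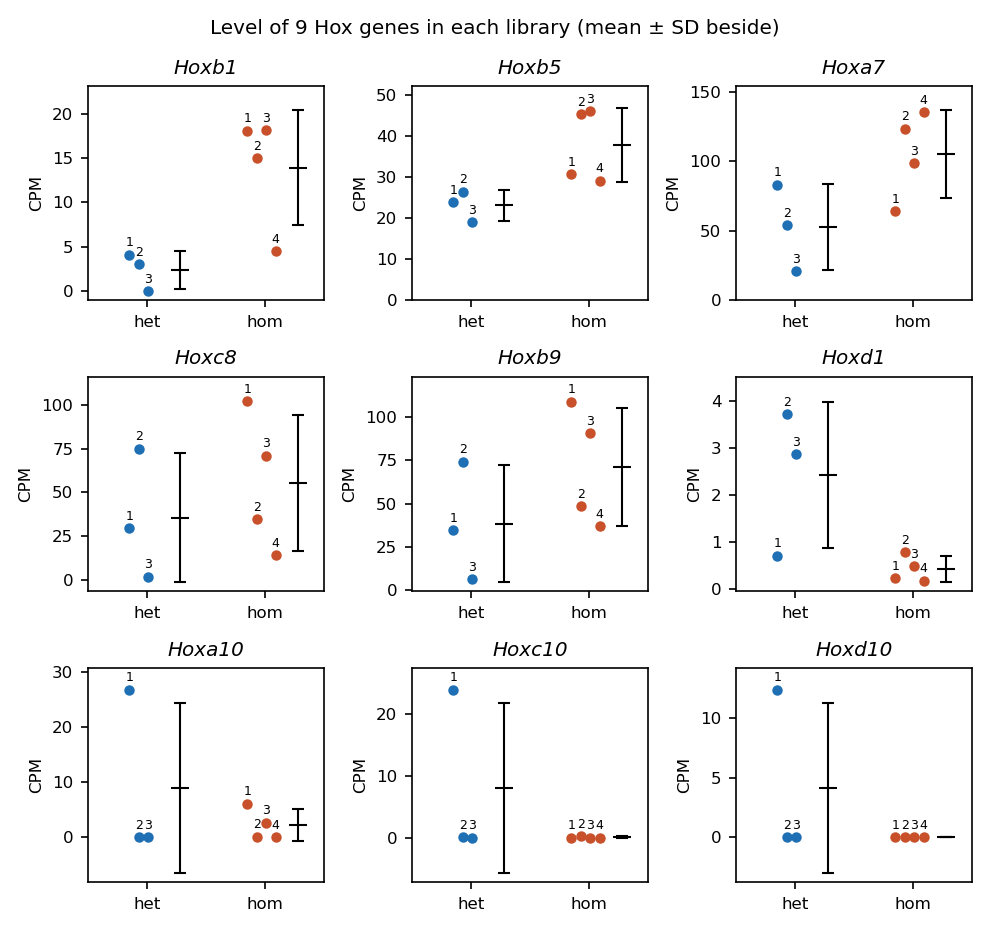
CPM of 9 Hox genes in each library (points, numbered by library; blue heterozygotes, orange homozygotes), with the mean and SD of each genotype beside them. Hoxb1 and Hoxb5 do not overlap between genotypes, Hoxc8 and Hoxb9 spread most within heterozygotes down to 2.0 and 6.26 CPM in library 3, and Hoxa10, Hoxc10 and Hoxd10 are high in heterozygote library 1.

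Groups 8 and 9 differed between libraries more than between genotypes. All 6 tested genes had fitted fold changes above 0, with a median of 0.32, and none had an unadjusted p below 0.05 in edgeR. Hoxc8, which is known for the brachial spinal cord, stood at 29.8, 74.9 and 2.0 CPM in heterozygotes and 102, 34.7, 71.0 and 14.2 CPM in homozygotes. Heterozygote library 3 was the lowest and homozygote library 4 the next, and the genotypes overlapped. The log2 fold change was 0.64 ± 0.90 (SE), and without heterozygote library 3 it was 0.0952 ± 0.66 (SE).

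Hoxb9 stood at 34.8, 74.2 and 6.26 CPM in heterozygotes and 109, 48.4, 90.8 and 37.0 CPM in homozygotes. Heterozygote library 3 was again the lowest, and the log2 fold change of 0.89 ± 0.66 (SE) was 0.40 ± 0.47 (SE) without it. Hoxa9, which is also active in blood progenitors, had 114, 156 and 20 counts in heterozygotes and 136, 76, 140 and 91 in homozygotes. Hoxc9, which is known to set thoracic identity in motor neurons, had 51, 79 and 1 counts in heterozygotes and 48, 61, 98 and 26 in homozygotes. For both, heterozygote library 3 was below all others and the remaining libraries overlapped, with log2 fold changes of 0.11 ± 0.60 and 0.33 ± 0.96 (SE). Without that library both turned, to -0.35 ± 0.45 for Hoxa9 and -0.23 ± 0.66 for Hoxc9 (SE). Hoxb8 and Hoxd8 had log2 fold changes of 0.30 ± 0.46 and 0.21 ± 0.42 (SE).

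Against the mean over the libraries, the shortfall of heterozygote library 3 grew along the axis in medians over paralogue groups, though not gene by gene. It was the lowest of the 7 libraries in 4 of the 14 tested genes of groups 1 to 5 and in 10 of the 11 tested genes of groups 6 to 9. Its median deviation from the mean over the libraries, on the log2(CPM + 0.5) scale, was -0.0931 for groups 1 to 3, -0.36 for groups 4 and 5, -0.93 for groups 6 and 7 and -2.23 for groups 8 and 9. The other 6 libraries lay between -0.32 and 0.81 for groups 8 and 9. Single genes departed from the order of the medians. In heterozygote library 3, Hoxb1 of group 1 stood at -3.53 on that scale, and Hoxb8 and Hoxd8 at only -0.82 and -0.67. As a share of the summed Hox level per kilobase, groups 8 and 9 made up 16.5, 25.7 and 5.05 percent in heterozygotes and 30.1, 16.3, 24.5 and 12.2 percent in homozygotes. The median log2 fold change of the tested genes of groups 6 to 10 was 0.43 with this library and 0.0669 without it.

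Spinal cord and mesenchyme markers were low in the same library. Beside the 20 spinal cord genes at 0, 9 of the 18 mesenchyme markers were at 0 there, and the mesenchyme sum was 65.7 CPM against 132 to 474 CPM in the other libraries. Its leukocyte sum, 291 CPM, of which Coro1a made up 283 CPM, and its erythroid sum, 0.522 CPM, were the lowest of the 7 too. Not every list was low there: the sensory neuron sum, 23656 CPM, and the sympathetic neuron sum, 248 CPM, were the highest of the 7. The neural crest and glia sum of heterozygote library 3, 1088 CPM, lay above those of homozygote libraries 2 and 4. Homozygote library 4, the next lowest in groups 8 and 9, had 9 of the 25 spinal cord and 9 of the 18 mesenchyme markers at 0. Homozygote library 1, the highest in Hoxc8 and Hoxb9, also had 9 of the 25 spinal cord markers at 0, as did heterozygote library 1. The summed levels of these libraries were less alike. Without Foxp1 the spinal cord sum was 130 CPM in homozygote library 1, 45.4 CPM in homozygote library 4 and 43.9 CPM in heterozygote library 1. Whether such cells had a part in the levels of groups 6 to 9 was not tested.

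**Figure D4:**
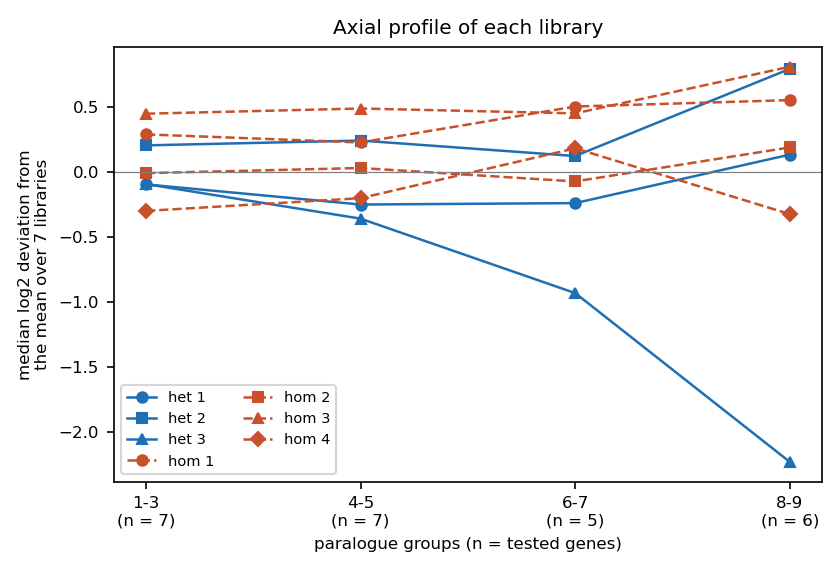
Median deviation of each library from the mean over the 7 libraries, on the log2(CPM + 0.5) scale, for the tested Hox genes of 4 ranges of paralogue groups. Solid blue lines are heterozygotes and dashed orange lines homozygotes. Heterozygote library 3 goes from -0.0931 in groups 1 to 3 to -2.23 in groups 8 and 9, while the other 6 libraries stay between -0.32 and 0.81.

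Group 10 genes and Hoxd9 were found mostly in heterozygote library 1. Hoxa10 had 344, 0 and 0 counts in heterozygotes and 84, 1, 33 and 0 in homozygotes. Hoxc10 had 306, 1 and 0 counts in heterozygotes and 0, 3, 0 and 0 in homozygotes. Hoxd10 had 159 counts in heterozygote library 1 and 0 in every other library. These are genes known for lumbar levels, while the protocol names cervical ganglia. That contrast was not confined to heterozygote library 1. Hoxb9, of a group known for thoracic levels, stood at 34.8 to 109 CPM in every library but heterozygote library 3, at 6.26 CPM. Hoxd9 had 43, 0 and 4 counts in heterozygotes and 0 in every homozygote.

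Together the 4 genes had 852 counts in heterozygote library 1, 87.1 percent of their counts in all libraries, with 8.59 percent in homozygote library 1 and 3.37 percent in homozygote library 3. Group 10 made up 11.4 percent of the summed Hox level per kilobase in heterozygote library 1 and at most 0.647 percent in each other library. No fold change between genotypes is read from them, since 1 library holds nearly all counts of a genotype. For Hoxa10, the only tested gene of the 4, the log2 fold change was -2.01 ± 1.89 (SE; unadjusted p = 0.313, edgeR), and it turned to 7.78 without heterozygote library 1. The same library was not high in Hoxc9 or Hoxa9, which lie beside group 10 genes in their clusters, at 51 and 114 counts against 79 and 156 in heterozygote library 2. Hoxd9, beside Hoxd10, went the other way, with 91.5 percent of its counts in heterozygote library 1.

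The other genes of the Hox system, taken from lists of cofactors and regulators, gave no edgeR call. The TALE cofactors had 9 of 9 genes tested, 0 with an adjusted p below 0.05 and 1 with an unadjusted p below 0.05, in edgeR. That gene was Meis1, a cofactor of Hox proteins that also works in blood stem cells, at 116.7, 104.7 and 127.1 CPM in heterozygotes and 311.9, 221.4, 232.4 and 143.8 CPM in homozygotes. Every homozygote was above every heterozygote, and the log2 fold change was 0.97 ± 0.24 (SE; edgeR adjusted p = 0.138, DESeq2 adjusted p = 0.00483). For Meis2 and Pbx3 the genotypes overlapped, at log2 fold changes of -0.00539 ± 0.33 and -0.15 ± 0.33 (SE).

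Of the caudal, retinoid, Gdf11 and hindbrain regulators of Hox expression, 9 of 14 were tested and 1 had an unadjusted p below 0.05 in edgeR. It was Rara, a retinoic acid receptor, at 16.2, 19.4 and 16.5 CPM in heterozygotes and 50.5, 26.8, 41.4 and 24.4 CPM in homozygotes. The genotypes did not overlap, and the log2 fold change was 1.04 ± 0.31 (SE; edgeR adjusted p = 0.186, DESeq2 adjusted p = 0.0356). Meis1 and Rara were the 2 calls of DESeq2 in these lists, each 1 of the 9 tested genes of its list. DESeq2 called 0 of the 22 Polycomb and Trithorax genes, and 4.76 percent of all genes. So few calls cannot tell these lists from that share. In the authors' deposited table the adjusted p of Meis1 and Rara was 0.00738 and 0.0271. Over the 19 alternatives run here their log2 fold changes ran from 0.65 to 1.2 and from 0.56 to 1.19. DESeq2 also called 11 of the 15 leukocyte markers, all higher in homozygotes, and the part of such cells in the Meis1 and Rara values was not tested. Rarg, another retinoic acid receptor, and Gdf11, a signal that acts on trunk-to-tail Hox genes, were lower in every homozygote than in any heterozygote. Their log2 fold changes were -1.71 ± 0.95 and -0.83 ± 0.54 (SE; edgeR adjusted p = 0.517 and 0.591), and both were named after their values were seen. The caudal genes Cdx1, Cdx2 and Cdx4, which act on posterior Hox genes in the tail bud, had 0 counts in every library.

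The Polycomb and Trithorax genes, whose proteins keep Hox genes off or on, were 22 in the table and all tested. None was called by edgeR, and the 1 with an unadjusted p below 0.05 was Rnf2, a ubiquitin ligase of Polycomb complex 1, with a log2 fold change of 0.56 ± 0.19 (SE; edgeR adjusted p = 0.250). Of the genes beside or within the clusters, 2 were tested. Skap1, beside Hoxb1, had a log2 fold change of 1.69 ± 0.61 (SE; edgeR adjusted p = 0.266) and Snx10, near the Hoxa cluster, one of -0.89 ± 0.37 (SE; edgeR adjusted p = 0.353). Skap1 is an adaptor protein of T cells and did not overlap between genotypes, while Snx10 did. Evx1, which lies past Hoxa13 and marks spinal interneurons, had 21 and 4 counts in homozygote libraries 2 and 3 and 0 in the others.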

How the data were processed

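RNA from the 7 sorted libraries was amplified and sheared, and single-end reads were taken, per the labels' protocols. The authors deposited raw counts per gene and library; the submitters' processing notes name TopHat 1.4.0, HTSeq, DESeq2 1.2.8 and genome mm9, and neither the annotation nor the strand setting is given in the sources used here. From the deposited comparison table, log2 fold changes (sign turned to homozygote over heterozygote) and the adjusted p-value of each gene served as a side comparison. A further 21 columns, of normalized values and of a sheet of selected genes, were not used.

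Of 29777 genes, 10416 had 0 counts in every library, and edgeR's filterByExpr (minimum count 10, minimum total 15) kept 14040. Genotypes were compared with edgeR 4.0.16 (R 4.3.3): TMM scaling, glmQLFit and glmQLFTest, two-sided, no covariate, Benjamini-Hochberg over all genes kept, called at an adjusted p below 0.05. The SE was had from the log2 fold change and F, as the former over the root of the latter. CPM is the count over the TMM effective library size. CPM per kb used 1 GENCODE M21 transcript per gene, by support level and then APPRIS rank. The promoter table is RefSeq's, on a build other than the files', and no coordinate of the files was used. The steps were tested on simulated counts. All pairs of libraries of a genotype differed beyond sampling noise (chi-square 29.1 to 72 per degree of freedom), so none was counted as deposited more than once. Total counts per library, 11184237 to 13986835, set the precision; intervals and floors cover counting error only.

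The members, marker lists and lists of other genes were chosen with earlier results of these data known. Genes named were, by rule, the members with an unadjusted p below 0.05, the 12 highest per kilobase, members of groups 9 to 13 with at least 10 counts in a library, members below the filter, and at most 4 genes of each other list. Outside that rule, further genes were named from the spinal cord list and from the caudal, retinoid, Gdf11 and hindbrain list. Alternatives were DESeq2 1.42.0, limma-voom (limma 3.58.1), other quasi-dispersion, scaling and filters, the label date as a covariate or window, a leukocyte covariate, and leaving out libraries. The date window left out homozygote libraries 1 and 3. For heterozygote library 1 the month is 1 in the title and 11 in the source name; 11 was used. A member and a cofactor that the rule or lists took in are not reported here by name; counts and medians over the groups include them.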

Additional observations from a re-analysis of the deposited data

Results flagged for a closer look

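Among the 4 homozygotes, 6 of 47 series of values held a library whose gap to the nearest other exceeded Dixon's 95 percent limit. Chance flags about 1 in 20 where values are normal and series independent. These series were not log-scaled and some are sums over the same genes, so 6 of 47 is not read against that rate. A series with counts in only 1 library is always flagged. Hoxc5 stood at 62.6 CPM in homozygote library 1. Hoxd4 stood at 4.49 CPM in homozygote library 3. Hoxc10 stood at 0.233 CPM in homozygote library 2, which is 3 counts against 0 in the others. Summed sensory neuron markers were 11834 CPM and summed leukocyte markers 4090 CPM in homozygote library 3. Summed skeletal muscle markers were 216 CPM in homozygote library 2. The heterozygotes, with 3 libraries, were not screened, so their libraries 1 and 3 do not appear here.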

How the results depend on the processing

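No Hox gene was called under any of the 19 alternatives, and the number with an unadjusted p below 0.05 ran from 0 (without homozygote library 2, or with the leukocyte covariate) to 7 (no filter). Calls over all genes, 7 in the reported fit, were 668 with DESeq2, 61 with the adjusted quasi-dispersion, 80 with no filter, 44 with a minimum count of 50, 3 with the label date as a covariate, 12 without both libraries numbered 3 and 0 with the leukocyte covariate; leaving out 1 library gave 1 to 27. Of cofactor and regulator genes, DESeq2 called 2 and every other setting 0. The Hox median log2 fold change, 0.26, ran from 0.0503 to 0.53 with 1 library left out. Signs of members described per library turned as follows, and the cause was not tested. With the leukocyte covariate the log2 fold changes were -0.0561 for Hoxa7, -0.0523 for Hoxb6, -0.67 for Hoxc8, -0.11 for Hoxb7, -0.33 for Hoxb9, 0.29 for Hoxc5, 0.15 for Hoxa2, -1.27 for Hoxa9 and -2.22 for Hoxc9. Within the date window they were -0.0123 for Hoxb6, -0.54 for Hoxc8, -0.24 for Hoxa9 and -0.0615 for Hoxc9. Without both libraries numbered 3 they were -0.0450 for Hoxb6, -0.0532 for Hoxc8, -0.51 for Hoxa9 and -0.63 for Hoxc9. limma-voom gave 0.47 for Hoxa10. With 1 library left out they ran from -0.22 to 0.17 for Hoxb3, -0.21 to 0.53 for Hoxb6, -0.30 to 0.37 for Hoxa5, -0.41 to 0.0964 for Hoxa2, -0.35 to 0.71 for Hoxa9, -0.23 to 1.16 for Hoxc9 and -2.59 to 7.78 for Hoxa10. A further 9 tested members, Hoxa3, Hoxb2, Hoxb4, Hoxb8, Hoxc4, Hoxc6, Hoxd3, Hoxd4 and Hoxd8, also turned sign in at least 1 alternative. No paired analysis was possible because the labels tell the libraries apart by dates and give no replicate numbers shared by the genotypes. Members under about 10 counts could not be compared at this depth.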
